A study of Sus scrofa with 24 samples.

Results

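The comparison described here is that of hydrolyzed fat (HF) and control (CON) formula in the hippocampus of piglets born at a normal size, termed appropriate for gestational age (AGA). Its members were taken from the sample titles, 6 AGA HF and 6 AGA CON libraries, which make up 12 of the 24 libraries of the study. HF stands for hydrolyzed fat and not for a high-fat diet: both formulas supplied fat in the same total amount, mainly as triglyceride oils in CON and, in HF, with part of the triglyceride replaced by soy free fatty acids, monoacylglycerol palmitate, lecithin and cholesterol. The piglets were PIC Camborough x PIC 359 crosses reared on formula from 2 days of age and killed at 14 days of age, and every AGA piglet had a littermate small for gestational age (SGA) on the same formula. The hippocampus was stabilized in RNAlater, polyadenylated RNA was sequenced from a single end with a stranded kit, and reads were counted on the exons of each gene. The paper reports RNA quality only as an average over its samples, whose value it puts down to pre-spliced RNA. The quality of single libraries is not given, and its part in any difference was not tested. AGA HF replicates 1, 3 and 4 and AGA CON replicates 1, 3 and 5 were males, and the other 6 piglets were females. Replicates 1 to 3 of each group belonged to cohort 1 and replicates 4 to 6 to cohort 2. The formulas were given to different litters, so that formula and litter cannot be told apart and the 6 and 6 piglets were compared without pairing.

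Dietary triglyceride is normally split in the gut by lipases before its fatty acids and monoacylglycerol are taken up, and this digestion is immature in newborns. In the brain, long-chain fatty acids are built into phospholipids, myelin lipids and signalling molecules such as prostaglandins and endocannabinoids, while cholesterol is made locally because lipoproteins hardly cross the blood-brain barrier. The hippocampus is a layered structure of glutamatergic neurons, interneurons and glia that serves spatial learning, and around this age its synapses and myelin are still being formed.

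Total counts on genes ranged from 6224421 to 7474872 in AGA HF and from 6204809 to 8723343 in AGA CON piglets (exact two-sided permutation test over 924 splits, p = 0.126, where the smallest p possible is 0.00216). Without AGA CON replicate 2, which stood apart as described next, the AGA CON mean was 7821668 beside 6849964 in AGA HF (exact two-sided permutation test over 462 splits, p = 0.0238). At this depth 3 counts correspond to 0.344 to 0.484 CPM, the unit used below, which is counts scaled to a common library total. Of 8 excitatory neuron markers 7 could be matched and tested, among them SLC17A7, CAMK2A and PROX1, and their summed level was 7571 to 10930.0 CPM in AGA HF and 6612 to 11010.0 CPM in AGA CON piglets.

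AGA CON replicate 2 stood apart from the other 11 libraries. Its correlation of log2 CPM with the mean of its own group was 0.973, where the other 11 libraries had 0.980 to 0.987. The neuron markers (8 of 10 matched and tested, none at 0) summed to 4011 CPM in this library and the median member lay 0.79 below its AGA mean on the log2 scale, while genes for synaptic vesicle release lay 0.67 below. Interferon-stimulated genes lay 1.59 and MHC class II genes 1.49 above the AGA mean in the same library, and T cell and lymphocyte markers (6 of 8 tested) 1.39 above. The summed T cell level was 6.98 to 16.3 CPM in AGA HF and 6.15 to 26.2 CPM in AGA CON piglets. AGA HF replicate 4 also had low neuron and synaptic values (0.54 and 0.45 below the AGA mean), with microglial markers 0.56 above. AGA HF replicate 2 had high interferon-stimulated genes (0.48 above). In bulk tissue, fewer cells of a type and less RNA per cell cannot be told apart. The results below are therefore given with and without AGA CON replicate 2, and the main ones also with AGA HF replicate 4 left out at the same time, a fit added after the data were seen. The part of the makeup of these libraries in any gene's difference was not tested.

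**Figure D1:**
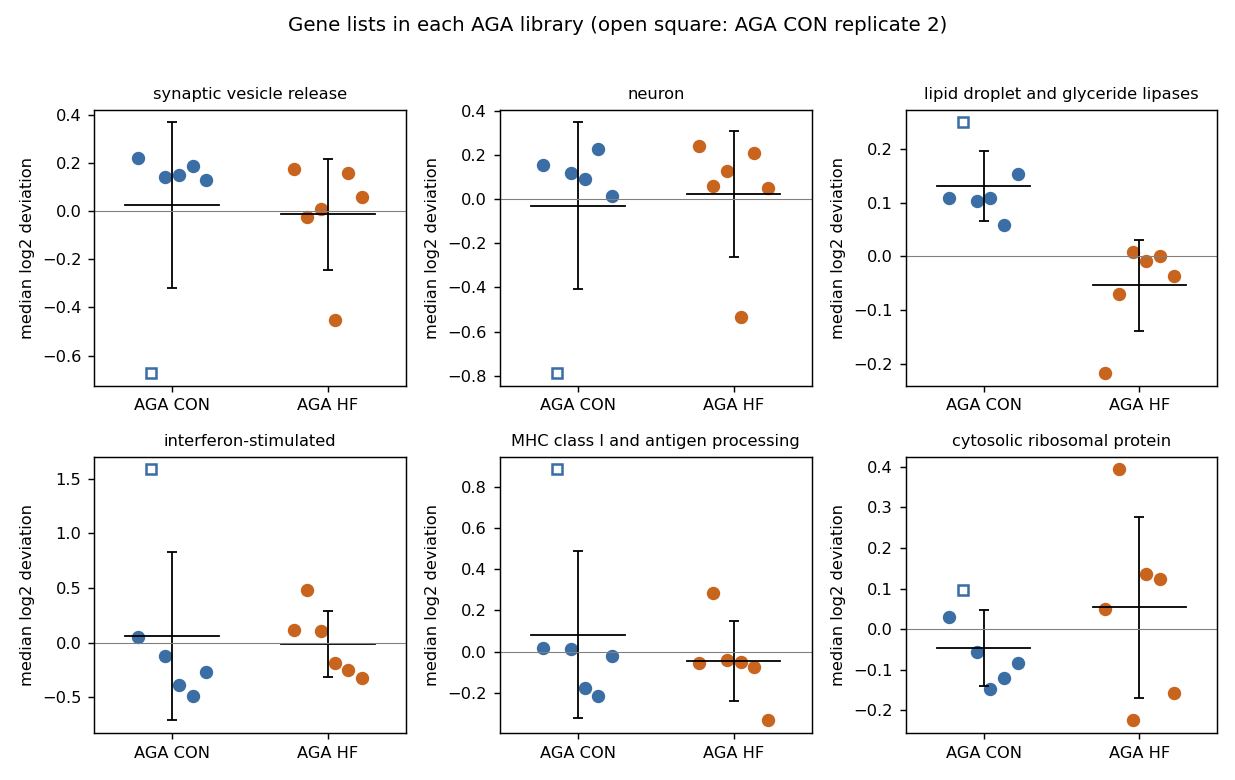
Each point is 1 AGA library, the y axis is the median over a gene list of the log2 deviation from the mean of the 12 AGA libraries, and black lines give the mean and SD of 6 libraries. AGA CON replicate 2 (open square) lies at -0.79 for neuron markers and at 1.59 for interferon-stimulated genes, and in the lipid droplet list every AGA HF library lies below every AGA CON library.

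With all libraries, up-regulation in AGA HF compared to AGA CON piglets passed the threshold in 1 gene and down-regulation in 10 genes, together 11 of 16326 tested (0.0674%). The threshold was an FDR under 0.4 over the 7 contrasts of the study (edgeR's quasi-likelihood test), which is lenient. The smallest FDR of this contrast was 0.224, and 0 genes passed when the adjustment covered this contrast alone. Before adjustment, 456 genes with higher values on HF (2.79%) and 538 with lower values (3.3%) had p under 0.05, where chance gives 816 in all. The median log2 fold change over all genes tested was 0.0027. When AGA CON replicate 2 was left out, 86 genes were up-regulated (0.529% of 16262 tested) and 341 down-regulated (2.1%), and 634 genes (3.9%) and 1125 genes (6.92%) in these directions had p under 0.05 before adjustment. Of these 427 genes, 2 had an FDR under 0.1, and 6 were among the 11 called with all libraries. When AGA HF replicate 4 was left out as well, 1 gene was called up (0.00616% of 16227 tested) and 4 down (0.0247%), 4 of them among the 427 and 1 among the 11, while 363 genes with higher and 625 with lower values had an unadjusted p under 0.05 (2.24% and 3.85%). All but 4 of the 427 genes thus did not pass the threshold in this fit. The larger number also came with the 5 surrogate variables, which are patterns of variation estimated from the data and used as covariates. With sex alone as a covariate and all libraries, 0 genes were called and 716 had an unadjusted p under 0.05, fewer than the 816 given by chance. With sex alone as a covariate and AGA CON replicate 2 left out, 5 genes were called and 1009 had an unadjusted p under 0.05. In the 11 remaining AGA libraries fitted alone with sex and cohort, 0 genes were called by edgeR and 1065 had an unadjusted p under 0.05. The FDR of this fit covered this contrast alone, an adjustment that also gave 0 calls in the main fit with all libraries. Leaving out this library also moved the other 6 contrasts of the study. The diet contrast in SGA piglets went from 15 to 94 calls, although the library enters it only through the shared fit and the shared FDR adjustment.

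**Figure D2:**
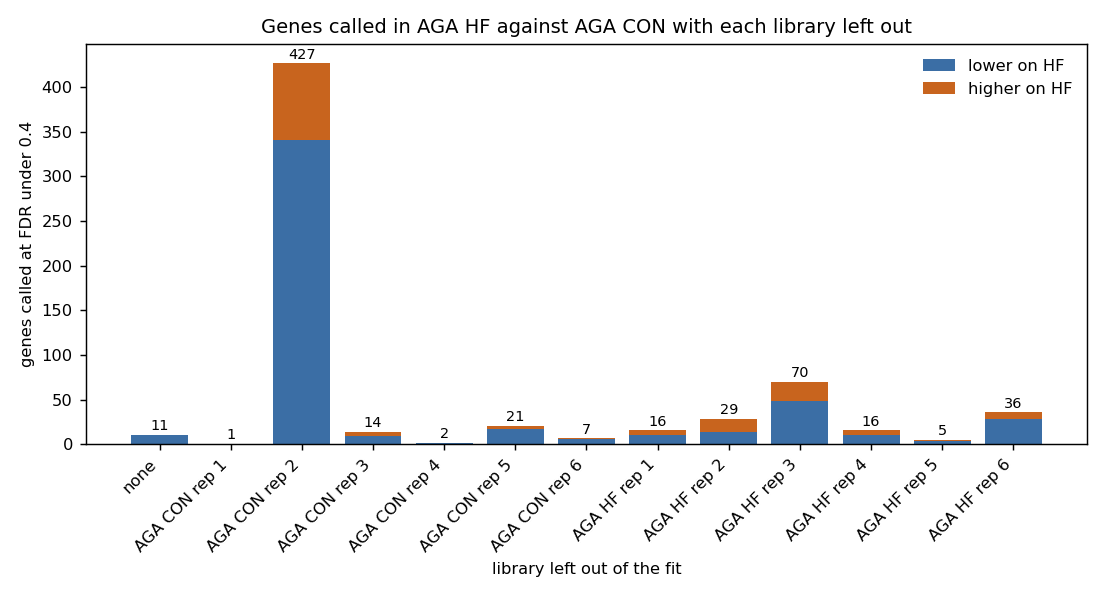
Bars count the genes called at an FDR under 0.4 in AGA HF against AGA CON when no library or the library named on the x axis is left out of the fit, split into genes lower (blue) and higher (orange) on HF. The count is 11 with all libraries, 427 without AGA CON replicate 2, and 1 to 70 without any of the other 11.

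Down-regulation of PLIN4 was seen with and without AGA CON replicate 2. PLIN4 (gene 100524667, chromosome 2 from 74811668 to 74824921 of Sscrofa10.2) encodes perilipin 4, a protein that coats lipid droplets. It ranged from 0.524 to 1.42 CPM (median 0.935) in AGA HF and from 1.55 to 3.01 CPM (median 2.12) in AGA CON piglets. All 6 AGA HF values lay below all 6 AGA CON values, although 3 counts correspond to as much as 0.484 CPM and the gene is near the limit of detection. On the log2 scale it fell by 1.14 (standard error 0.285, edgeR FDR = 0.382). When AGA CON replicate 2, in which the gene was highest, was left out, it fell by 1.01 (standard error 0.283, edgeR FDR = 0.281). With AGA HF replicate 4 left out as well the log2 fold change was -1.11 and did not pass the threshold (edgeR FDR = 0.556). The log2 fold change was -1.05 in cohort 1 alone and -1.21 in cohort 2 alone. Fits of a single cohort, here and below, held sex and no surrogate variables, unlike the main fit. PLIN4 was past the threshold in 2 of the 12 fits that each left out a single AGA library, with an edgeR FDR of 0.272 to 0.506 over them.

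PLIN4 belongs to a list of 20 genes for lipid droplet coats and for the enzymes that make or split glycerides, of which 16 were tested. PLIN4 was the single member called, and 12 of 16 had lower and 4 higher values on HF, with a median log2 fold change of -0.15 beside 0.0027 over all genes. Without AGA CON replicate 2, 13 of 16 were lower and the median was -0.16, and the same numbers were obtained when AGA HF replicate 4 was left out too. The per-library median of the list lay between 0.22 below and 0.0081 above the AGA mean in AGA HF piglets and between 0.059 and 0.25 above it in AGA CON piglets, so the groups did not overlap. Of the 47 lists described here it was the only list whose AGA HF and AGA CON values did not overlap, with 0 lists in the opposite direction, and it was singled out after these values were seen. Its median log2 fold change was -0.14 in cohort 1 and -0.21 in cohort 2, and -0.074 between the diets in SGA piglets.

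Other members of this list had smaller differences that did not pass the threshold. PLIN3, another droplet coat, averaged 20.8 ± 2.90 CPM (SD, 6 piglets) on HF and 23.8 ± 4.90 CPM on CON (log2 fold change -0.22, edgeR FDR = 0.743). MGLL, the lipase that splits monoacylglycerol and also degrades the endocannabinoid 2-arachidonoylglycerol, averaged 315.5 CPM on HF and 358.7 CPM on CON (log2 fold change -0.16, edgeR FDR = 0.773). PNPLA2, the lipase that takes the initial fatty acid from stored triglyceride, ranged from 62.2 to 83.8 CPM (median 72.0) in AGA HF piglets and from 74.5 to 102 CPM (median 87.7) in 5 AGA CON piglets, and AGA CON replicate 2 had 59.5 CPM. Its log2 fold change was -0.10 with all libraries and -0.25 without that one (edgeR FDR = 0.888 and 0.432). DGAT1, which makes triglyceride, had log2 fold changes of -0.14 and -0.24 in the same fits (edgeR FDR = 0.828 and 0.458). G0S2, an inhibitor of PNPLA2, and PNPLA3 were among the 4 members with higher values (log2 fold changes 0.40 and 0.43, edgeR FDR = 0.775 and 0.933).

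PEA15 had the smallest p of the genes present in every library, and its call depended on AGA CON replicate 2. PEA15 (gene 100152480, chromosome 4 from 98204998 to 98215557) encodes a protein abundant in astrocytes that binds ERK and death effector domain proteins. It ranged from 2982 to 3796 CPM (median 3243) in AGA HF and from 3441 to 4237 CPM (median 3583) in AGA CON piglets. The highest AGA CON value was that of replicate 2, and the groups overlapped. On the log2 scale the gene fell by 0.23 (standard error 0.0473, edgeR FDR = 0.224), and had a log2 fold change of -0.12 without that library (edgeR FDR = 0.606). The value was -0.26 in cohort 1 and -0.05 in cohort 2. Of the 18 members tested in a list of its partners and of the ERK cascade, PEA15 alone was called, 13 were lower and 5 higher, and the median was -0.042. SPRY2, an inhibitor of the cascade, was the only other member with an unadjusted p under 0.05 (log2 fold change -0.21, edgeR FDR = 0.704).

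HS3ST4, FAM189B and TAF3 were called down with all libraries and without AGA CON replicate 2, but not when AGA HF replicate 4 was also left out (log2 fold changes -0.30, -0.28 and -0.39, edgeR FDR = 0.481, 0.426 and 0.495). HS3ST4 (gene 100520072, chromosome 3 from 20872499 to 21404256), which adds sulphate to heparan sulphate chains, ranged from 46.9 to 72.6 CPM (median 60.7) in AGA HF piglets and from 63.9 to 85.5 CPM (median 75.7) in 5 AGA CON piglets, and AGA CON replicate 2 had 44.9 CPM. It fell by 0.31 (standard error 0.0722, edgeR FDR = 0.308), and by 0.35 without replicate 2 (edgeR FDR = 0.122). Apart from replicate 2, only the highest AGA HF piglet lay above the lowest AGA CON piglet. FAM189B (gene 100511014, chromosome 4 from 103357892 to 103363812), a membrane protein gene of little known function, ranged from 68.2 to 80.0 CPM (median 74.1) in AGA HF piglets and from 84.6 to 94.8 CPM (median 90.6) in 5 AGA CON piglets, and AGA CON replicate 2 had 72.0 CPM. All 6 AGA HF piglets lay below these 5 AGA CON piglets, and the gene fell by 0.25 (standard error 0.0595, edgeR FDR = 0.371), or by 0.27 without replicate 2 (edgeR FDR = 0.127). TAF3 (gene 100620508, chromosome 10 from 69631749 to 69671345), a subunit of the general transcription factor TFIID, ranged from 13.04 to 17.2 CPM (median 14.1) in AGA HF and from 17.1 to 19.6 CPM (median 18.1) in AGA CON piglets. Only the highest AGA HF piglet exceeded the lowest AGA CON piglet. TAF3 fell by 0.40 (standard error 0.0958, edgeR FDR = 0.371), or by 0.31 without replicate 2 (edgeR FDR = 0.342).

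DPYD, KIF1C and SH3D21 did not pass the threshold when AGA CON replicate 2 was left out. DPYD (gene 397109, chromosome 4 from 131845556 to 132550018), the rate-limiting enzyme of pyrimidine breakdown, ranged from 4.52 to 7.58 CPM (median 5.59) in AGA HF and from 6.86 to 8.36 CPM (median 7.78) in AGA CON piglets. The 2 highest AGA HF piglets overlapped the AGA CON values, and the gene fell by 0.63 (standard error 0.146, edgeR FDR = 0.311). When AGA CON replicate 2 was left out, the log2 fold change was -0.37 (edgeR FDR = 0.504). KIF1C (gene 100511042, chromosome 12 from 53968351 to 53993120), a kinesin motor, ranged from 319 to 558 CPM (median 398) in AGA HF and from 427 to 562 CPM (median 468) in AGA CON piglets. It fell by 0.31 with all libraries (edgeR FDR = 0.379), and had log2 fold changes of -0.47 in cohort 1 and 0.02 in cohort 2. SH3D21 (gene 100625427, on an unplaced scaffold) fell by 0.38 (edgeR FDR = 0.371), and AGA CON replicate 2 was its highest value at 30.4 CPM. Without that library KIF1C and SH3D21 had log2 fold changes of -0.19 and -0.22 (edgeR FDR = 0.492 and 0.596). Of the 12 fits that each left out a single AGA library, PEA15 and FAM189B were called in 7, HS3ST4 in 6, DPYD and TAF3 in 4, and KIF1C and SH3D21 in 3.

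**Figure D3:**
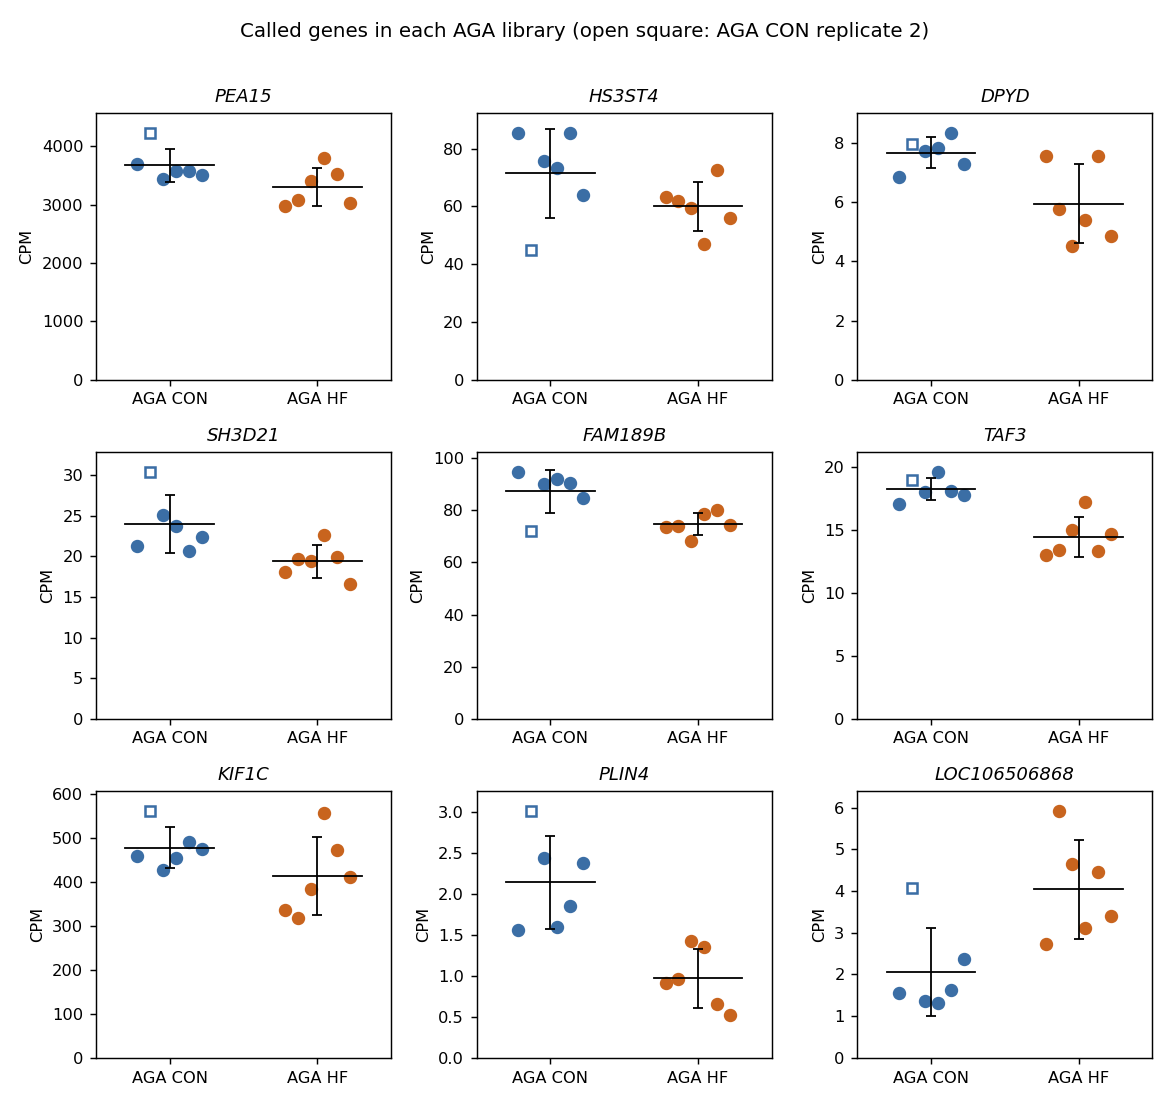
CPM of 9 called genes in each AGA library on linear axes from 0, with AGA CON replicate 2 as an open square and black lines for the mean and SD of 6 libraries. PLIN4 is the only gene shown without overlap between the groups, and the highest PEA15 value, 4237 CPM, is that of AGA CON replicate 2.

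The single up-regulated gene was LOC106506868 (gene 106506868, chromosome 18 from 56015640 to 56020828), an uncharacterized gene. It ranged from 2.73 to 5.92 CPM (median 3.93) in AGA HF and from 1.33 to 4.07 CPM (median 1.59) in AGA CON piglets. AGA CON replicate 2 had the highest AGA CON value, and the other 5 AGA CON piglets had no more than 2.38 CPM, below all AGA HF piglets. The gene rose on the log2 scale by 1.20 (standard error 0.267, edgeR FDR = 0.271), and by 1.14 without that library (edgeR FDR = 0.189). Its value was 1.21 with AGA HF replicate 4 left out too (edgeR FDR = 0.445). It was called in 10 of the 12 fits that left out a single AGA library. The other called genes were sporadic. LOC100152327 (gene 100152327, chromosome 14 from 52423076 to 52424866) ranged from 0 to 8.96 CPM (median 0.135) in AGA HF and from 0 to 10.6 CPM (median 0.273) in AGA CON piglets and its fitted difference of -4.85 moved to 0.0042 without AGA CON replicate 1. Gene 100737314, which has no symbol, was at 0 in 11 of the 12 AGA libraries and at 1.401 CPM in AGA CON replicate 6, so no fold change is given.

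The 10 genes with higher values on HF and the smallest p, among genes with a symbol and at least 5 CPM on average, did not pass the threshold (edgeR FDR from 0.402 to 0.478). They were TRMO, ERI3, MPPED1, RGS4, RASL10A, ATXN10, CYB561, C16H5orf49, PRMT6 and PLXND1. RGS4, a regulator of G protein signalling in neurons, ranged from 96.2 to 275 CPM (median 214) in AGA HF and from 99.1 to 192 CPM (median 164) in AGA CON piglets (log2 fold change 0.39, edgeR FDR = 0.428). TRMO, a tRNA methyltransferase, ranged from 4.28 to 7.88 CPM (median 6.19) in AGA HF and from 3.92 to 5.29 CPM (median 4.50) in AGA CON piglets (log2 fold change 0.64). When AGA CON replicate 2 was left out, TRMO passed the threshold at 0.44 (edgeR FDR = 0.379), and ERI3 had a log2 fold change of -0.02 in place of 0.21. Among genes with lower values, IQSEC3, SHISA6 and DAXX came next after the called genes, each with an edgeR FDR of 0.402. IQSEC3, a scaffold of inhibitory synapses, ranged from 414 to 576 CPM (median 513) in AGA HF and from 532 to 713 CPM (median 599.6) in AGA CON piglets (log2 fold change -0.28). SHISA6, an auxiliary subunit of AMPA receptors, had log2 fold changes of -0.39 with all libraries and 0.01 in cohort 1 alone. In the fit without AGA CON replicate 2, IQSEC3 and SHISA6 fell by 0.25 and 0.44 (edgeR FDR = 0.211 and 0.144), and DAXX, a histone H3.3 chaperone, had -0.19 (edgeR FDR = 0.413).

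Genes for synaptic vesicle release had lower values in AGA HF piglets when AGA CON replicate 2 was left out. With all libraries, 16 of 21 members tested were lower, 5 had an unadjusted p under 0.05 in that direction and 1 in the other, 0 were called by edgeR, and the median log2 fold change was -0.050. Without that library, 19 of 21 were lower, 11 had an unadjusted p under 0.05 and 7 were called down, beside 2.1% of all genes, with a median of -0.21 where the median of all genes was -0.0033. They included BSN, SYN1, CPLX1, VAMP2, SYN2 and SV2A. AGA HF replicate 4 lay 0.45 below the AGA mean in this list, where the other 5 AGA HF piglets lay between 0.024 below and 0.17 above it. With both libraries left out, 17 of 21 were lower, 5 had an unadjusted p under 0.05, 0 were called by edgeR, and the median was -0.087. With only AGA CON replicate 2 left out and no surrogate variables, 6 of 21 had an unadjusted p under 0.05 and the median was -0.19. The list's median was 0.13 in cohort 1 alone, which holds AGA CON replicate 2, and -0.19 in cohort 2 alone, where all 21 members were lower.

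SYN1, a protein that tethers synaptic vesicles, ranged from 1465 to 1942 CPM (median 1699.8) in AGA HF piglets and from 1858 to 2199.9 CPM (median 1965) in 5 AGA CON piglets, and AGA CON replicate 2 had 1066 CPM. The log2 fold change was -0.14 with all libraries (edgeR FDR = 0.678), and it fell by 0.23 without that library (standard error 0.0512, edgeR FDR = 0.172). VAMP2, the vesicle SNARE synaptobrevin, ranged from 1952 to 2959 CPM (median 2673) in AGA HF piglets and from 2752 to 3127 CPM (median 2813) in 5 AGA CON piglets, and AGA CON replicate 2 had 1677 CPM. Leaving out that library changed its log2 fold change from -0.11 to -0.20 (edgeR FDR = 0.637 and 0.203). BSN, the active zone scaffold bassoon, ranged from 26.1 to 59.3 CPM (median 44.0) in AGA HF piglets and from 48.3 to 62.8 CPM (median 57.4) in 5 AGA CON piglets, and AGA CON replicate 2 had 42.9 CPM. It had a log2 fold change of -0.27 with all libraries and fell by 0.45 without that library (edgeR FDR = 0.130). For SYN1 and VAMP2, 2 AGA HF piglets lay above the lowest of the 5 remaining AGA CON piglets, and for BSN 3 did. The lowest AGA HF value of each of the 3 genes was that of replicate 4. With that library left out as well, their log2 fold changes were -0.20, -0.15 and -0.33 (edgeR FDR = 0.481, 0.605 and 0.545). In SGA piglets the same genes had diet differences of -0.02, -0.02 and -0.05.

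Markers of excitatory neurons followed a similar pattern. SLC17A7, the vesicular glutamate transporter, ranged from 2138 to 3636 CPM (median 3082) in AGA HF piglets and from 3342 to 3839.5 CPM (median 3562) in 5 AGA CON piglets, and AGA CON replicate 2 had 1577 CPM. Of the 6 AGA HF piglets, 3 lay below all 5 remaining AGA CON piglets. The log2 fold change was -0.10 with all libraries (edgeR FDR = 0.788), and it fell by 0.31 without AGA CON replicate 2 (edgeR FDR = 0.118). In cohort 1 alone, which holds AGA CON replicate 2, the value was 0.23 and in cohort 2 alone -0.43. CAMK2A and NRGN, postsynaptic proteins of calcium and calmodulin signalling, fell by 0.16 and 0.22 in the same fit (edgeR FDR = 0.298 and 0.195). Of the 7 excitatory markers tested, 0 were called by edgeR with all libraries (1 with an unadjusted p under 0.05, higher on HF) and 3 without that library, beside 2.1% of all genes. AGA HF replicate 4 had the lowest AGA HF value of SLC17A7 (2138 CPM) and lay 0.33 below the AGA mean over these markers. With both libraries left out, SLC17A7 had a log2 fold change of -0.22 (edgeR FDR = 0.481), and 6 of 7 markers were lower with a median of -0.13, 3 at an unadjusted p under 0.05 and 0 called by edgeR. The neuron list had a median of 0.024 with all libraries and -0.12 without AGA CON replicate 2, where 2 of 8, the neurofilament subunits NEFM and NEFL, were called down. With both left out its median was -0.018, with 1 member at an unadjusted p under 0.05 and 0 called by edgeR.

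**Figure D4:**
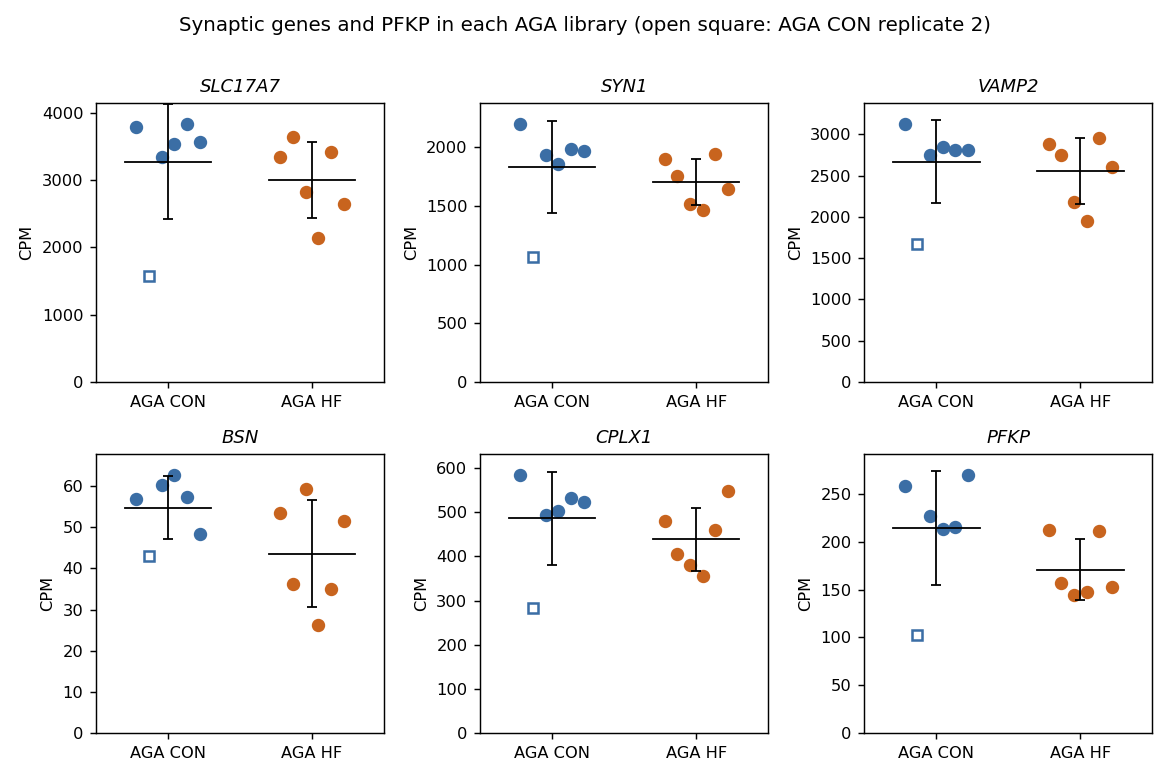
CPM of 5 synaptic genes and of PFKP, a glycolytic enzyme, in each AGA library on linear axes from 0, with the mean and SD of 6 libraries in black. AGA CON replicate 2 (open square) has the lowest value of its group in each panel, for example 1577 CPM for SLC17A7, and the other 5 AGA CON piglets reach at least 3342 CPM.

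Receptor, channel and energy genes of neurons were also examined. Of 18 AMPA and NMDA receptor genes, 0 were called by edgeR with all libraries (1 with an unadjusted p under 0.05, lower on HF), and 2 were called down without AGA CON replicate 2, beside 2.1% of all genes, where 13 of 18 were lower and the median was -0.15 in place of -0.026. GABA-A receptor subunits had a median of 0.14 (10 of 13 higher) with all libraries and 0.0090 without. Of 20 potassium channel genes, 13 were higher with all libraries and 17 lower without, and in the latter fit 3 were called down, beside the same 2.1%. Among them were KCNQ5 and KCNC1, subunits of channels that shape firing, which fell by 0.34 and 0.45 (edgeR FDR = 0.352 and 0.381). With AGA HF replicate 4 left out as well, 11 of 18 receptor genes were lower (median -0.058) and 9 of 20 channel genes (median 0.012). In that fit edgeR called 0 of either list (2 of each had an unadjusted p under 0.05, with lower values), where 0.0247% of all genes were called down.

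Glycolytic genes had a median of 0.015 with all libraries and -0.091 without AGA CON replicate 2, where PFKP, PKM and GPI were called down, beside 2.1% of all genes, and 17 of 20 were lower. PFKP (gene 100521394, chromosome 10 from 73581212 to 73608200), the platelet-type phosphofructokinase that is the main form in brain, ranged from 144 to 212 CPM (median 155) in AGA HF piglets and from 213 to 270.1 CPM (median 227) in 5 AGA CON piglets, and AGA CON replicate 2 had 102 CPM. All 6 AGA HF piglets lay below these 5. Its log2 fold change was -0.33 with all libraries (edgeR FDR = 0.522), and it fell by 0.47 without that library (standard error 0.0766, edgeR FDR = 0.0636). It was also called when surrogate variables were dropped (log2 fold change -0.48, edgeR FDR = 0.364), and it was 1 of the 5 genes called when AGA HF replicate 4 was left out too, where it fell by 0.48 (edgeR FDR = 0.289). In that last fit 11 of 20 glycolytic genes were lower, with a median of -0.034. Among 17 immediate early genes, JUN ranged from 33.3 to 52.4 CPM (median 42.0) in AGA HF and from 48.7 to 63.0 CPM (median 52.2) in AGA CON piglets. The log2 fold change of JUN was -0.27 (edgeR FDR = 0.554), and it fell by 0.34 without AGA CON replicate 2 (edgeR FDR = 0.198). With AGA HF replicate 4 left out as well, JUN had -0.34 and did not pass the threshold (edgeR FDR = 0.529). Of these 17 genes, 12 were lower and 5 higher with all libraries (median -0.079), and 0 were called by edgeR. HOMER1, the other member with an unadjusted p under 0.05, had higher values on HF (log2 fold change 0.77, edgeR FDR = 0.596).

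Among 22 cholesterol synthesis genes, 11 were higher and 11 lower, 0 were called by edgeR, and the median was -0.011. Without AGA CON replicate 2, 1 of 21 was called down, beside 2.1% of all genes, and the median was 0.032. In that fit 2 with higher and 3 with lower values had an unadjusted p under 0.05, beside 3.9% and 6.92% of all genes. TM7SF2, a sterol reductase and the single member with an unadjusted p under 0.05 with all libraries, ranged from 262 to 326 CPM (median 289) in AGA HF and from 222 to 273 CPM (median 256) in AGA CON piglets (log2 fold change 0.22, edgeR FDR = 0.610). SCARB1, a receptor for high-density lipoprotein, ranged from 123 to 156 CPM (median 148) in AGA HF and from 143 to 179 CPM (median 165) in AGA CON piglets (log2 fold change -0.18 in both fits, edgeR FDR = 0.609 and 0.441). Cholesterol and lipoprotein transport genes had 13 of 18 lower with all libraries and 9 of 18 without.

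Of 20 genes for fatty acid synthesis, desaturation and elongation, 15 were lower and the median was -0.052, or -0.046 without AGA CON replicate 2, with 0 called by edgeR in either fit. With all libraries 1 gene with higher and 2 with lower values had an unadjusted p under 0.05, beside 2.79% and 3.3% of all genes. Without that library 4 with lower values did, beside 6.92% of all genes. MLXIPL, a glucose-responsive transcription factor of lipid synthesis, ranged from 19.4 to 29.7 CPM (median 23.5) in AGA HF and from 24.7 to 34.2 CPM (median 30.2) in AGA CON piglets (log2 fold change -0.26, edgeR FDR = 0.588). Fatty acid oxidation and PPAR target genes had a median of -0.072 with all libraries and -0.0060 without. PDK4, which restrains glucose oxidation, ranged from 13.3 to 21.1 CPM (median 19.2) in AGA HF and from 15.6 to 28.9 CPM (median 19.2) in AGA CON piglets, the highest value being that of AGA CON replicate 2. Its log2 fold change was -0.42 with all libraries and -0.08 without that library (edgeR FDR = 0.564 and 0.931). Phospholipid synthesis genes had a median of -0.0030, or -0.050 without that library, where 2 of 25 were called down, beside 2.1% of all genes. Sphingolipid and myelin lipid synthesis genes had a median of -0.011. In this list, SGMS2 and CERS1, enzymes that make sphingomyelin and ceramide, had an unadjusted p under 0.05. SGMS2, near the limit of detection, ranged from 0.320 to 1.18 CPM (median 0.506) in AGA HF and from 1.04 to 2.56 CPM (median 1.14) in AGA CON piglets (log2 fold change -1.11, edgeR FDR = 0.555).

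Genes that make signals from fatty acids included both directions. Of 20 genes for arachidonic acid and prostaglandin metabolism, PTGDS, PTGIS and PTGER2 had an unadjusted p under 0.05, all with higher values on HF, and they were the 3 called up when AGA CON replicate 2 was left out, where 0.529% of all genes were called up and 2 members with lower values had an unadjusted p under 0.05. With AGA HF replicate 4 also left out, 0 of the 20 were called by edgeR (3 with higher values and 1 with lower values had an unadjusted p under 0.05). The list as a whole had 12 of 20 higher with all libraries and 10 of 20 without. PTGDS, the prostaglandin D synthase that is a main product of meninges and choroid plexus, ranged from 170.1 to 289 CPM (median 195) in AGA HF and from 156 to 199.6 CPM (median 177) in AGA CON piglets. With all libraries the log2 fold change was 0.27 (standard error 0.0804, edgeR FDR = 0.495), and it rose by 0.32 without that library (edgeR FDR = 0.202). It was -0.02 in cohort 1 alone and 0.55 in cohort 2 alone. PTGIS, the prostacyclin synthase, ranged from 3.25 to 5.16 CPM (median 4.02) in AGA HF and from 1.17 to 4.97 CPM (median 2.68) in AGA CON piglets, and it rose by 0.81 without that library (edgeR FDR = 0.383). PTGER2, a prostaglandin E receptor near the detection limit, rose by 1.74 in that fit (edgeR FDR = 0.340). Among 9 endocannabinoid genes, DAGLA, which makes 2-arachidonoylglycerol, ranged from 204 to 255 CPM (median 229) in AGA HF piglets and from 249.8 to 305 CPM (median 269.9) in 5 AGA CON piglets, and AGA CON replicate 2 had 200.4 CPM. It had a log2 fold change of -0.19 with all libraries (edgeR FDR = 0.586) and fell by 0.27 without that library (edgeR FDR = 0.196).

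Meningeal fibroblast markers, whose cells lie on the surface of the dissected tissue, had higher values on HF, as PTGDS had. Of 11 markers tested of 12 (none at 0), 10 were higher on HF with a median of 0.36, and without AGA CON replicate 2 all 11 were higher with a median of 0.42. In cohort 1 alone 3 of 10 were higher (median -0.095) and in cohort 2 alone all 10 (median 0.60). AGA HF replicates 4 and 6, both of cohort 2, lay 0.67 and 0.75 above the AGA mean. Their summed level was 158 to 352 CPM in AGA HF and 179 to 269 CPM in AGA CON piglets. DCN, decorin, ranged from 15.1 to 39.2 CPM (median 20.4) in AGA HF and from 10.1 to 18.1 CPM (median 15.2) in AGA CON piglets (log2 fold change 0.57, edgeR FDR = 0.555), and it rose by 0.52 without that library (edgeR FDR = 0.362). COL3A1, a fibrillar collagen, had log2 fold changes of -0.07 in cohort 1 and 0.85 in cohort 2. The part of these cells in the PTGDS difference was not tested.

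The direction of the interferon list depended on AGA CON replicate 2. Of 28 interferon-stimulated genes, 21 were lower on HF with all libraries (median -0.24), and without that library 21 of 26 tested were higher (median 0.12). With AGA HF replicate 4 left out as well, 15 of 26 were lower (median -0.041). With all libraries 0 were called by edgeR and 1 had an unadjusted p under 0.05 in each direction. CXCL10, an interferon-induced chemokine, ranged from 0.758 to 12.6 CPM (median 1.53) in AGA HF piglets and from 1.16 to 7.51 CPM (median 2.31) in 5 AGA CON piglets, and AGA CON replicate 2 had 38.1 CPM. IFIH1, a sensor of viral RNA, ranged from 0.917 to 2.08 CPM (median 1.46) in AGA HF piglets and from 0.271 to 1.04 CPM (median 0.464) in 5 AGA CON piglets, and AGA CON replicate 2 had 5.42 CPM. Its lowest AGA HF value lay below the highest of these 5 AGA CON values. It had a log2 fold change of 0.83 (edgeR FDR = 0.713) and rose by 1.24 without that library (edgeR FDR = 0.368). MHC class I and antigen processing genes had 13 of 18 lower and a median of -0.15, or -0.033 without that library.

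Pig MHC genes are similar to each other and vary between animals, so their counts are uncertain. SLA-5, a class I gene, ranged from 2.88 to 22.6 CPM (median 5.14) in AGA HF and from 3.24 to 46.0 CPM (median 27.5) in AGA CON piglets (log2 fold change -1.79, edgeR FDR = 0.585) and fell by 1.94 without AGA CON replicate 2 (edgeR FDR = 0.337). SLA-DRB1, a class II gene, ranged from 1.15 to 8.64 CPM (median 1.41) in AGA HF and from 4.53 to 12.3 CPM (median 5.47) in AGA CON piglets. It had a log2 fold change of -1.05 (edgeR FDR = 0.585) and fell by 1.48 without that library, with SLA-DQB1 also called down (edgeR FDR = 0.203 and 0.347), beside 2.1% of all genes. With AGA HF replicate 4 left out as well, these genes did not pass the threshold (edgeR FDR = 0.597 and 0.426). Of 9 class II genes tested, 6 were lower and 3 higher with all libraries (median -0.048). Without AGA CON replicate 2, 7 of 8 were lower (median -0.20). Without AGA HF replicate 4 alone, 5 of 9 were higher (median 0.0505). In SGA piglets the diet differences of SLA-DRB1 and SLA-DQB1 were -0.86 and -0.91 (edgeR FDR = 0.640 and 0.585). Complement genes were higher in 16 of 18 (median 0.22), or in 13 of 18 without AGA CON replicate 2 (median 0.10), with 0 called by edgeR in either fit and 1 and 2 genes at an unadjusted p under 0.05. The direction depended on the fit: with sex and no surrogate variables 9 were higher and 9 lower (median 0.0065), and the median was -0.33 in cohort 1 alone, with 14 of 18 lower, and 0.24 in cohort 2 alone. With all libraries the gene at an unadjusted p under 0.05 was ITGAM, a complement receptor subunit of microglia with lower values on HF (log2 fold change -0.49, edgeR FDR = 0.681). Microglial markers (15 of 16 tested) had a median of 0.037 and a summed level of 247 to 574 CPM in AGA HF and 242 to 639 CPM in AGA CON piglets.

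Cytosolic ribosomal protein genes were higher in AGA HF piglets by a small amount. Of 72 tested, 65 were higher, 8 had an unadjusted p under 0.05, all higher, beside 2.79% of all genes, 0 were called by edgeR, and the median was 0.068. Without AGA CON replicate 2, 71 of 72 were higher, 24 had an unadjusted p under 0.05 beside 3.9% of all genes, 5 were called up beside 0.529% of all genes, and the median was 0.12. When AGA HF replicate 4 was left out as well, 65 of 72 were higher, 11 had an unadjusted p under 0.05, 0 were called by edgeR, and the median was 0.098. With only AGA CON replicate 2 left out and no surrogate variables, 5 had an unadjusted p under 0.05. Reads of these genes may be shared with near-identical copies. The per-library values of the list overlapped, from -0.23 to 0.39 around the AGA mean in AGA HF and from -0.15 to 0.096 in AGA CON piglets, and AGA HF replicates 2 and 3 had the highest and lowest values. RPLP0, a subunit of the ribosomal stalk, ranged from 349.8 to 573 CPM (median 420.5) in AGA HF and from 368 to 450.0 CPM (median 382) in AGA CON piglets (log2 fold change 0.23, edgeR FDR = 0.532). Subunits of respiratory complex I were higher in 31 of 37 (median 0.065), or in 29 of 37 without that library (median 0.045), and CYCS, cytochrome c, ranged from 172 to 224 CPM (median 186) in AGA HF and from 131 to 183 CPM (median 162) in AGA CON piglets (log2 fold change 0.23, edgeR FDR = 0.657).

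Astrocyte markers were lower in 9 of 11 with all libraries (median -0.089) and higher in 7 of 11 without AGA CON replicate 2 (median 0.062). GFAP, the astrocyte intermediate filament, ranged from 6733 to 10865 CPM (median 7508) in AGA HF and from 7506 to 11044 CPM (median 8844) in AGA CON piglets (log2 fold change -0.22, edgeR FDR = 0.529, and -0.11 without that library, FDR = 0.793). Myelin genes had a median of -0.056, with 12 of 20 lower, and -0.018 without that library, with 10 of 20 lower. MBP, myelin basic protein, ranged from 4424 to 10193 CPM (median 6863) in AGA HF and from 7158 to 8944 CPM (median 7386) in AGA CON piglets, a wider spread in AGA HF than in AGA CON piglets (log2 fold change -0.33, edgeR FDR = 0.675). Its log2 fold change was -0.095 with all libraries and no surrogate variables, and 0.07 in cohort 2 alone. Endothelial markers had a median of -0.11, or -0.054 without that library. MFSD2A, which carries docosahexaenoic acid as lysophosphatidylcholine across the blood-brain barrier, ranged from 62.2 to 82.5 CPM (median 66.3) in AGA HF and from 65.8 to 83.9 CPM (median 72.6) in AGA CON piglets (log2 fold change -0.12, edgeR FDR = 0.709). Markers of red blood cells (3 of 7 tested) summed to 178 to 386 CPM in AGA HF and 110 to 364 CPM in AGA CON piglets. All 3 were higher on HF with and without AGA CON replicate 2 (median 0.56 and 0.57), with 0 called by edgeR in either fit and 0 and 2 at an unadjusted p under 0.05.

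Over all 47 lists, 37 had a median within 0.1 of 0 on the log2 scale with all libraries and 32 without AGA CON replicate 2. The sign of the median changed in 15 lists and remained in 32. Lists with at least 1 called gene numbered 3 and 21. Calls over all genes rose from 11 (0.0674%) to 427 (0.529% up and 2.1% down) between these fits. The rise in the number of lists is therefore not a result about the lists.

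**Figure D5:**
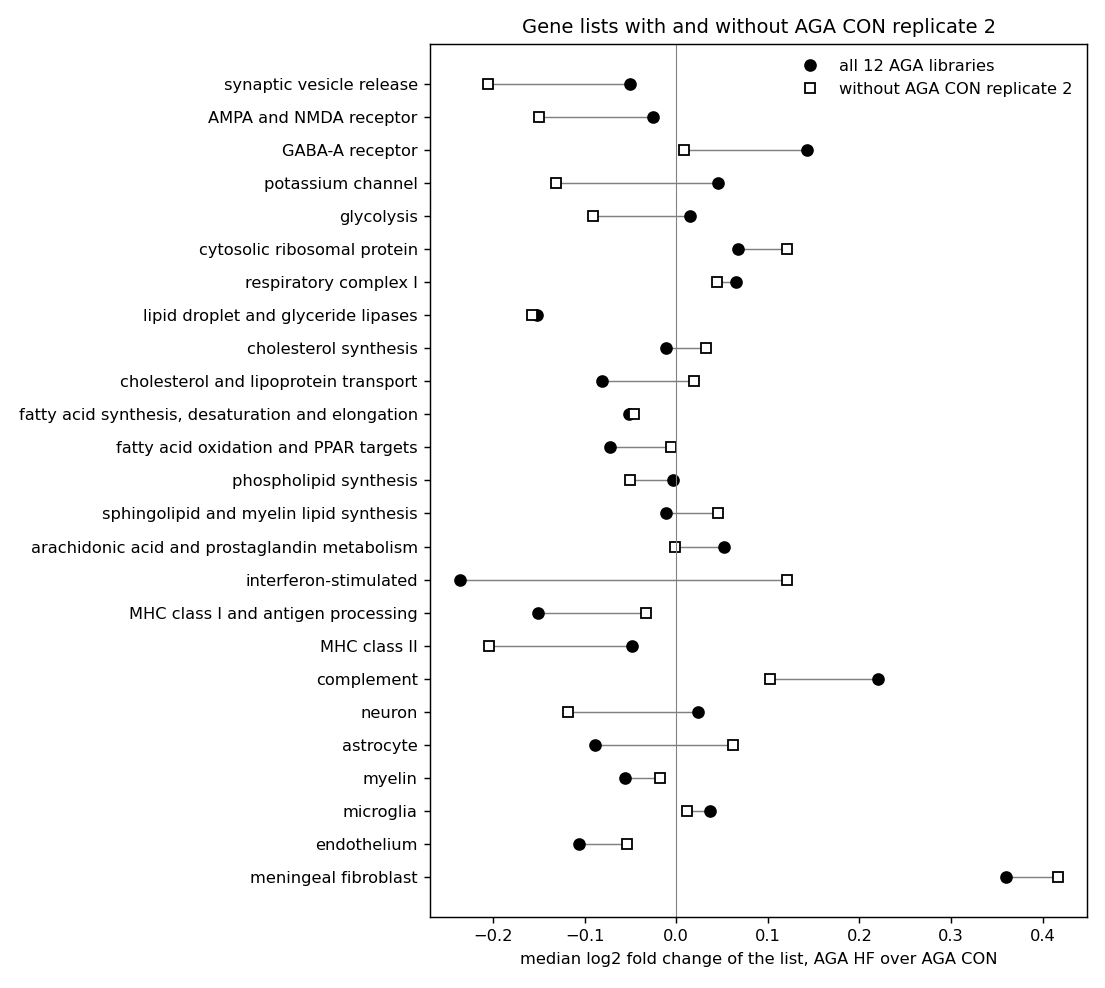
Median log2 fold change of 25 gene lists in AGA HF over AGA CON piglets, with all 12 AGA libraries (filled circles) and without AGA CON replicate 2 (open squares), on the x axis. The lipid droplet list stays near -0.15, interferon-stimulated genes move from -0.24 to 0.12, and synaptic vesicle release genes from -0.050 to -0.21.

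The genes with the smallest p when AGA CON replicate 2 was left out were listed after their values were seen. ADAMTS8 (gene 100518855, chromosome 9 from 63360903 to 63383712), a secreted metalloprotease, had the smallest. It ranged from 25.02 to 41.1 CPM (median 33.3) in AGA HF piglets and from 46.6 to 52.6 CPM (median 47.9) in 5 AGA CON piglets, and AGA CON replicate 2 had 18.8 CPM. All 6 AGA HF piglets lay below the remaining 5 AGA CON piglets, and the lowest value of all was that of AGA CON replicate 2. ADAMTS8 had a log2 fold change of -0.35 with all libraries (edgeR FDR = 0.626) and fell by 0.58 without that library (standard error 0.0848, edgeR FDR = 0.0275). Without surrogate variables as well it was -0.58 (edgeR FDR = 0.492), and in cohort 1 alone, which holds AGA CON replicate 2, -0.08. It was also called with AGA HF replicate 4 left out, where it fell by 0.50 (edgeR FDR = 0.304). PFKP, described above, came next. NPTXR, a neuronal pentraxin receptor at excitatory synapses, DYSF, a membrane repair protein, and SLC24A3, a sodium, potassium and calcium exchanger, followed. They fell by 0.33, 0.64 and 0.37 in that fit (edgeR FDR = 0.118 for each). DYSF and SLC24A3 were also called without surrogate variables (edgeR FDR = 0.364 and 0.381). With AGA HF replicate 4 left out as well, NPTXR, DYSF and SLC24A3 did not pass the threshold. Their log2 fold changes were then -0.31, -0.48 and -0.30 (edgeR FDR = 0.401, 0.483 and 0.473).

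Among genes that rose in that fit, HSD17B4 (gene 397574, chromosome 2 from 128752284 to 128841343), an enzyme of peroxisomal fatty acid oxidation, ranged from 79.9 to 109 CPM (median 90.9) in AGA HF piglets and from 67.0 to 86.5 CPM (median 72.2) in 5 AGA CON piglets, and AGA CON replicate 2 had 83.1 CPM. It had a log2 fold change of 0.15 with all libraries (edgeR FDR = 0.679) and rose by 0.29 without that library (edgeR FDR = 0.155). HNMT (gene 100624677, chromosome 15 from 16061749 to 16096444), which inactivates histamine in brain, ranged from 15.8 to 21.1 CPM (median 18.2) in AGA HF and from 12.2 to 14.9 CPM (median 14.0) in AGA CON piglets. Its groups did not overlap, and it had log2 fold changes of 0.35 with all libraries and 0.37 without that library (edgeR FDR = 0.555 and 0.228). RELN, reelin, the secreted protein that guides neuronal layering and is made by interneurons at this age, ranged from 45.4 to 74.3 CPM (median 55.2) in AGA HF and from 40.1 to 49.3 CPM (median 46.1) in AGA CON piglets, and it rose by 0.33 in that fit (edgeR FDR = 0.233). In the fit without AGA HF replicate 4 as well it had 0.44 (edgeR FDR = 0.401). DCT, a melanin synthesis enzyme of pigment cells, ranged from 5.92 to 28.0 CPM (median 15.7) in AGA HF and from 5.11 to 9.24 CPM (median 7.33) in AGA CON piglets, and it rose by 1.04 without AGA CON replicate 2 (edgeR FDR = 0.2196). With both libraries left out, HSD17B4, HNMT and DCT did not pass the threshold either. Their log2 fold changes were 0.21, 0.30 and 0.85 (edgeR FDR = 0.605, 0.671 and 0.661).

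In 11 genes every AGA HF value lay above every AGA CON value (0.0674% of genes tested) and in 11 every value lay below (0.0674%). Such a gene has p = 0.00216 by an exact two-sided permutation test, and 16326 genes were searched. These counts therefore do not exceed what chance gives. Among those with a gene name were EPC1, HNMT, ZNF565, CTNNBL1, ESCO1, SAAL1 and PRPF18 above, and PLIN4, MAP7D3, ATP11B, ABRAXAS2, F8 and NFKBID below. PLIN4 was the only member of both directions that was also called. EPC1, a subunit of a histone acetyltransferase complex, ranged from 33.7 to 39.7 CPM (median 34.7) in AGA HF and from 26.0 to 31.9 CPM (median 29.3) in AGA CON piglets (log2 fold change 0.28, edgeR FDR = 0.494). NFKBID, a nuclear regulator of NF-kappaB, ranged from 12.0 to 19.6 CPM (median 16.0) in AGA HF and from 19.96 to 23.3 CPM (median 21.8) in AGA CON piglets, with a fitted log2 fold change of -0.18 (edgeR FDR = 0.852) and of -0.40 when surrogate variables were dropped.

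The diet difference of AGA piglets was compared with that of their SGA littermates by the interaction contrast. The fit has no term for litter, so its p-values take littermates as independent. It called 8 of 16326 genes, with a smallest FDR of 0.243 (edgeR's quasi-likelihood test), while 654 had p under 0.05 before adjustment, and it called 86 when AGA CON replicate 2 was left out. PLIN4 had a diet difference of 0.42 in SGA piglets (edgeR FDR = 0.820), and the interaction was 1.56 (standard error 0.376, edgeR FDR = 0.371). Of the 11 genes called in AGA piglets, LOC100152327 was the only other with a called interaction. For PEA15, FAM189B and DPYD the diet differences in SGA piglets were -0.05, -0.02 and -0.11, and the interactions did not pass the threshold (edgeR FDR = 0.581, 0.588 and 0.6255). HS3ST4 had -0.23 in SGA piglets, with an interaction of 0.08 (edgeR FDR = 0.918). CLDN6, a tight junction protein near the limit of detection, had a log2 fold change of -0.43 in AGA and of 1.16 in SGA piglets (interaction edgeR FDR = 0.375). HSPA8, the constitutive heat shock protein, ranged from 47.9 to 87.4 CPM (median 61.5) in AGA HF and from 56.3 to 74.7 CPM (median 62.9) in AGA CON piglets, and its diet difference was 0.23 in AGA and -0.32 in SGA piglets (interaction edgeR FDR = 0.391). Without AGA CON replicate 2, the difference of HSPA8 in AGA piglets was -0.03.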

How the data were processed

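The values analysed were whole-number read counts per gene, which the authors deposited without normalization, 1 table for each of the 24 libraries. Per the labels and the study's methods, reads were trimmed with Trimmomatic 0.33, aligned to Sscrofa10.2 with STAR 2.5.2a and counted on exons by strand with featureCounts (Subread 1.5.0). Reads that matched several places were left out, which lowers genes with near-identical copies. Of 38882 genes listed, 23036 were matched to a name in a Sscrofa11.1 gene table, used for names only. The count of reads on an entry with no identifier, 0.735% to 1.62% of the AGA libraries, was left out.

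A gene was kept if 3 or more of the 24 libraries reached 1 CPM (22556 removed). Counts were normalized by TMM after that filter, and tested with edgeR 4.0.16 in R 4.3.3 by the quasi-likelihood test. The fit held the 4 groups, sex and 5 surrogate variables (sva 3.50.0), as the study's own model did, and the Benjamini-Hochberg adjustment covered the 7 contrasts together. The study used limma voom, which was an alternative here (limma 3.58.1), as was DESeq2 1.42.0. The labels name separate piglets, so p-values measure the spread between animals. Standard errors come from the same fit and include that spread. The limit of 3 counts covers counting error only. Per-library list values are medians of log2(CPM + 0.5) deviations.

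The comparison and its 47 gene lists (16 of cell type markers and 31 of pathways) were chosen with earlier results of these data known. Genes named were all those called, the 10 higher and 10 lower with the smallest p among genes with a symbol and a mean of at least 5 CPM, up to 3 members of each list with the smallest p, and PEA15 with its list. Other genes named, including those called only without AGA CON replicate 2, those without overlap and those of the interaction, were chosen after their values were seen. Some genes within these rules are not reported here. Alternatives changed the tool, the scaling, the filter, the covariates, the libraries or the threshold. The fits that left out AGA CON replicate 2 together with another change or with AGA HF replicate 4, and TMM before the filter, were added after the data were seen. On simulated counts for this comparison (16051 genes), the test recovered 39.7% of genes changed 1.25-fold, 90.9% at 1.5-fold and 93.9% at 2-fold, and 47 of its 196 calls were false. The simulated libraries were drawn independently, without an outlying library, cohort or litter, and only genes of at least 5 CPM were changed. These shares therefore describe that setting and not the power or false calls in the real libraries.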

Additional observations from a re-analysis of the deposited data

Results flagged for a closer look

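Single libraries that lay far from the other 5 of their group were looked for in 256 sets of 6 values, and 42 were found, where chance gives about 1 in 20 sets, or 13. AGA CON replicate 2 accounted for 26 of the 42 and AGA HF replicates 2 and 4 for 6 and 4. Many of these genes were named because leaving out AGA CON replicate 2 changed their call, so the numbers are in part fixed by that choice. In AGA CON replicate 2, PEA15 was at 4237 CPM, TAPBP at 143 CPM, PTGER2 at 1.96 CPM, CXCL10 at 38.1 CPM, IFIH1 at 5.42 CPM and TNMD at 1.81 CPM, each above the rest of the group. Below the rest of the group in the same library lay CAMK2B at 626 CPM, SLC17A7 at 1577 CPM, NRGN at 1370.1 CPM, PFKP at 102 CPM, VAMP2 at 1677 CPM, SYN1 at 1066 CPM, CPLX1 at 282 CPM, SYN2 at 84.6 CPM and SV2A at 257 CPM.

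Median log2 deviations of lists in that library were -0.79 for neuron, -0.37 for excitatory neuron, -0.67 for synaptic vesicle release and -0.34 for glycolysis genes. They were 0.54 for endothelium, 0.19 for fatty acid uptake and activation, 0.89 for MHC class I and antigen processing, 1.59 for interferon-stimulated, 0.45 for inflammatory signalling and 0.29 for glucocorticoid response genes. Its share of reads on the entry with no identifier was 1.62%.

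In AGA HF replicate 2, LOC100152327 was at 8.96 CPM, C16H5orf49 at 60.8 CPM, TAPBP at 131 CPM, SLA-DRB1 at 8.64 CPM and CXCL10 at 12.6 CPM, and MHC class II genes had a median deviation of 0.48. In AGA HF replicate 4, the medians were -0.54 for neuron, -0.45 for synaptic vesicle release, -0.27 for AMPA and NMDA receptor and 0.19 for fatty acid oxidation and PPAR target genes. RELN was at 74.3 CPM and the lipid droplet list at -0.22 in AGA HF replicate 1, DCN at 39.2 CPM in AGA HF replicate 6, and red blood cell markers at -0.49 in AGA HF replicate 5. In AGA CON replicate 6, MBP was at 8944 CPM and gene 100737314 at 1.401 CPM.

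The diet difference departed between SGA and AGA piglets in 2 of the genes called here, by 1.56 on the log2 scale for PLIN4 and by 7.18 for LOC100152327, a sporadic gene whose counts came from few piglets.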

How the results depend on the processing

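The number of genes called in AGA HF against AGA CON, 11, was 3 with limma voom, 59 with DESeq2, 18 with DESeq2 size factors, 3 with 1 CPM in at least 6 libraries, 17 with 2 surrogate variables, 5 with sex and cohort in their place and 29 with TMM factors before the filter. It was 0 with sex and no surrogate variables (716 genes at an unadjusted p under 0.05), with the 12 AGA libraries alone with sex and cohort (522), in cohort 1 alone (966) and cohort 2 alone (677), and 0 with the FDR over this contrast alone or an FDR under 0.1 (994). Fits of the AGA libraries alone had the FDR adjusted over this contrast alone, and fits of a single cohort had no surrogate variables. With no filter, 1717 genes had an unadjusted p under 0.05. With AGA CON replicate 2 left out, 5 genes were called without surrogate variables, 391 with limma voom (1721 at an unadjusted p under 0.05) 0 with the 11 AGA libraries alone with sex and cohort (1065), and 5 with AGA HF replicate 4 left out too (988). The interaction, 8 calls, gave 1 with limma voom, 17 with DESeq2, 15 with DESeq2 size factors, 1 with 1 CPM in at least 6 libraries, 0 with sex and no surrogate variables and 20 with TMM before the filter. The cause of these moves was not tested.

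Replicate numbers did not pair the piglets. Deviations of same-numbered AGA HF and AGA CON piglets had a mean correlation of 0.049 (-0.095 to 0.14 over 6 pairs), against 0.043 over 12 other pairs of the same cohort. With the replicate block in the 12 AGA libraries alone, 0 genes were called (edgeR, FDR over this contrast alone) and 560 had an unadjusted p under 0.05.

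Without a single AGA library, calls ranged from 1 to 427 and genes at an unadjusted p under 0.05 from 859 to 1759. The interaction gave 86 calls without AGA CON replicate 2. Among the named genes, LOC100152327 ranged from -5.83 to 0.0042 (reversed without AGA CON replicate 1), ERI3 from -0.025 to 0.22 and HSPA8 from -0.025 to 0.26 (both reversed without AGA CON replicate 2), and PNPLA3 from -0.056 (reversed without AGA HF replicate 3) to 0.77. In cohort 1 alone, which holds AGA CON replicate 2, 16 reversed: SHISA6 (0.0060), CAMK2B (0.14), PTGDS (-0.020), SLC17A7 (0.23), NRGN (0.14), COL3A1 (-0.068), TNMD (-0.48), NEFM (0.11), KCNQ5 (0.17), VAMP2 (0.083), SYN1 (0.035), SYN2 (0.33), SV2A (0.062), GPI (0.044), PKM (0.072) and NEFL (0.21). In cohort 2 alone, 12 reversed: KIF1C (0.018), ERI3 (-0.057), C16H5orf49 (-0.088), SLA-DQB1 (0.025), ABCB1 (0.069), MFSD2A (0.042), PDK4 (0.14), TECR (0.0043), MBP (0.075), HSPA8 (-0.27), PLIN3 (0.070) and PNPLA3 (-0.29). Depth limits genes under about 1 CPM, such as PLIN4 on HF, where 3 counts are up to 0.484 CPM.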
